A study of Sus scrofa with 2 samples.

Results

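The genes described here are the expressed solute carriers of the porcine stria vascularis (SV), the epithelium in the lateral wall of the cochlea that secretes endolymph. They were taken from a table of 27622 annotated features as every feature whose symbol had the form SLC, a number and A, with at least 1 RPKM in at least 1 of 2 libraries. RPKM is a gene's read count scaled to exon length and library depth. The carriers were thus chosen by these RPKM values, and the genes left out were fixed with their values known. The SLC4, SLC22 and SLC26 families and the genes SLC12A2, SLC24A5 and SLC45A2 were left out, which removed 38 of 289 carrier features. Of the other 251, 176 reached the minimum, and these are the carriers described below. They carried 174 symbols, since SLC7A1 and SLC2A13 each had 2 features. Of the 176, 156 were named by the symbol in the deposited table and 20, whose symbol was blank there, by the Ensembl name of their identifier.

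The study asked how the SV transcriptome differs between pigs with 1 and with 2 copies of r, the recessive Mitf allele of albino, deaf Rongchang pigs. One library was of genotype MITF R/r and 1 of genotype MITF r/r, so the control also carried an r allele. The r allele carries short insertions and other variants ahead of the melanocyte transcript of Mitf. Both samples were dissections of the cochlear lateral wall with its SV, per the study's methods. The labels give the age as P1, whereas the study describes its RNA-seq as prenatal, and the stage was not settled here. How many animals stood behind each library was not given in the sources used here.

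Solute carriers are membrane proteins that move amino acids, sugars, ions, metals, vitamins and metabolites across the plasma membrane or the membranes of organelles. They are numbered by family, and family members mostly share a fold and a type of substrate. In the SV, carriers feed an epithelium with a very high energy demand, serve its capillaries, and help the marginal, intermediate and basal cells to keep the ionic make-up of endolymph. Intermediate cells are melanocytes, the lineage that depends on the Mitf gene.

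With 1 library per genotype there was no replicate check. No test between genotypes was possible, and every ratio below compares these libraries rather than the genotypes. A log2 ratio is that of the r/r RPKM over the R/r RPKM, without a pseudocount. The values in brackets after it are the bounds of an exact (Clopper-Pearson) 95% interval on recovered whole reads, which covers counting error only. The depth estimated from the RPKM values was 15829244 reads for R/r and 14258672 for r/r, so that 1 read on a feature of 1 kb was worth 0.0632 and 0.0701 RPKM. The carriers had between 7 and 24825 reads over both libraries, with a median of 575, and 151 of 176 had at least 100. In bulk tissue, fewer cells of a type and less RNA per cell cannot be told apart.

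At least some markers of SV and lateral wall cells were expressed in both libraries, as were some of those of bone, glia, muscle and red cells. MITF itself, spread over 3 features, had 51.7 RPKM in the R/r and 37.8 RPKM in the r/r library at its highest feature, a log2 ratio of -0.45 (-0.75 to -0.16), and a gene-level RPKM does not separate its melanocyte transcript from the others. Of 10 melanocyte markers 9 were expressed, meaning at least 1 RPKM in at least 1 library. In the r/r library TYR, PMEL, RAB38, TRPM1 and MLANA were below 1 RPKM, whereas DCT, EDNRB, SOX10 and KIT were not. The summed RPKM of the 10 was 315 in the R/r and 52.7 in the r/r library. DCT stood at 171 and 1.19 RPKM, and MLANA at 12.0 RPKM and 0, while KIT stood at 43.6 and 44.2 RPKM. The summed RPKM of 5 marginal cell markers in the table, KCNE1 among them, was 1342 and 893, and that of 3 fibrocyte and basal cell markers was 7721 and 5672. Single genes held most of these sums, ATP1B2 with 915 and 522 RPKM and COCH with 6826 and 4914 RPKM. The 8 bone markers summed to 745 and 489 RPKM, 7 glial markers to 138 and 191, 8 neuronal markers to 37.8 and 56.8, 6 muscle markers to 46.2 and 71.3, and 5 red cell markers to 1699 and 1431. Fat cell markers were near 0 in both (0.249 and 0.172 RPKM summed over 3 genes, with LEP at 0).

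Most solute carriers had nearly the same RPKM in both libraries, as did most of the features compared. The median log2 ratio of the 176 carriers was -0.03, beside -0.02 over the 16331 features compared in the same way. The ratio was below 0 for 100 carriers and above 0 for 76, beside 8711 and 7620 of the 16331 features. It lay within 1.5-fold for 161 carriers and within 1.2-fold for 118, beside 14560 and 11393 of the 16331 features. At least 2-fold apart were 5 carriers (2.84%), 3 lower and 2 higher in the r/r library. The background over all features compared was 3.99% (2.20% lower and 1.78% higher), so the share of these 176 carriers was no higher than the background. That share does not cover the carriers left out with their values known, among them SLC45A2, which the study lists as lower in r/r. At the threshold of 1.5-fold there were 15 carriers (8.52%), 6 lower and 9 higher, beside 10.8% of all features (6.31% lower and 4.53% higher). The counting interval lay on 1 side of no change for 54 carriers (30.7%), 34 lower and 20 higher, beside 25.7% of all features (14.5% lower and 11.2% higher). Those 54 carriers had a median of 922 reads against 449.5 for the rest, and 20 of them were under 1.2-fold apart.

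**Figure D1:**
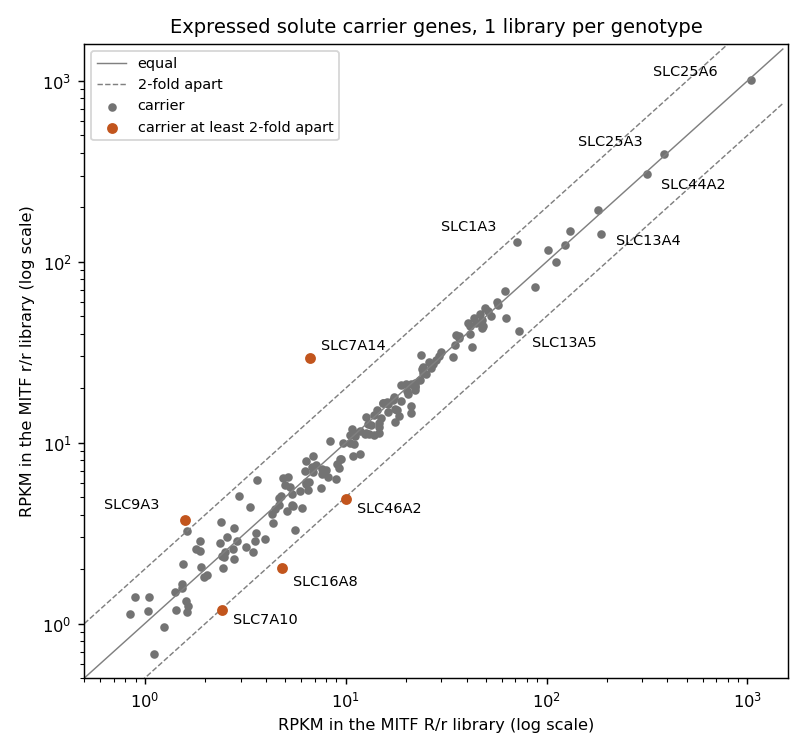
RPKM of each of the 176 expressed solute carriers in the MITF R/r library (x axis) against the MITF r/r library (y axis), both on log scales; the solid line marks equal values, the dashed lines a 2-fold difference, and the coloured points the 5 carriers at least 2-fold apart. Most points lie along the line of equal values over the whole range of levels, and SLC7A14, at 6.64 and 29.6 RPKM, lies farthest from it.

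The levels were held by few genes. The 10 carriers with the highest mean RPKM made up 50.5% of the summed RPKM of all 176 in the R/r and 51.3% in the r/r library. That sum was 5243 RPKM in the R/r and 5192 RPKM in the r/r library, or 0.874% and 0.844% of the summed RPKM of all features. In both libraries 88 carriers had at least 10 RPKM and 9 had at least 100 RPKM. The highest was SLC25A6, an ADP/ATP exchanger of the inner mitochondrial membrane, with 1037 RPKM in the R/r and 1012 RPKM in the r/r library. SLC25A3, which brings phosphate into mitochondria, followed with 386 and 396 RPKM. The third was SLC44A2, a choline transporter-like protein of the inner ear, with 315 and 304 RPKM. These 3 levels differed by under 1.2-fold between the libraries.

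Mitochondrial carriers (SLC25) exchange nucleotides, phosphate and metabolites between the matrix and the cytosol, and were the largest family, with 33 of 38 listed features expressed. They summed to 2307 RPKM in the R/r and 2302 RPKM in the r/r library. Their median log2 ratio was 0.00, with 16 below and 17 above 0, and none was 2-fold apart, beside 3.99% of all features. The ADP/ATP exchangers did not all lie to the same side: SLC25A5 had 180 RPKM in the R/r and 194 RPKM in the r/r library, a log2 ratio of 0.11 (0.02 to 0.19). SLC25A4, the form best known from heart and muscle, had 112 and 100 RPKM, a log2 ratio of -0.16 (-0.24 to -0.08). These paralogs are similar enough that reads could be divided among them uncertainly. The carriers furthest apart were at low levels. SLC25A14, a relative of the uncoupling proteins, had 2.94 RPKM in the R/r and 5.10 RPKM in the r/r library from 41 and 64 reads, a log2 ratio of 0.79 (0.21 to 1.40). SLC25A47 and SLC25A34 had log2 ratios of 0.59 and 0.65, but from 33 and 29 reads in all, and both intervals spanned no change. Among carriers with at least 5 RPKM in a library, the lowest ratio was that of SLC25A27, another relative of the uncoupling proteins, with 18.0 and 15.2 RPKM and a log2 ratio of -0.24 (-0.43 to -0.05).

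Amino acid transporters (SLC1, SLC3, SLC7, SLC36, SLC38 and SLC43) included the carrier furthest apart, SLC7A14. The 25 expressed features had a median log2 ratio of -0.01, with 14 below and 11 above 0, and their summed RPKM was 585 in the R/r and 664 in the r/r library. The counting interval lay below 0 for 6 and above 0 for 5, or 44.0% of the class beside 25.7% of all features, and the class had a median of 767 reads against 449. The classes of carboxylate and of inorganic ion carriers had similar shares, 44.4% and 45%. The 7 expressed SLC38 genes, of a family with several sodium-coupled transporters of neutral amino acids such as glutamine, all had intervals that spanned no change. So did 12130 of the 16331 features compared.

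SLC7A14 (ENSSSCG00000011748), a lysosomal relative of the cationic amino acid transporters that is mutated in an inherited retinal dystrophy, differed the most of all 176 carriers. It had 6.64 RPKM from 153 reads in the R/r library and 29.6 RPKM from 614 reads in the r/r library. The r/r value was 4.46-fold higher, a log2 ratio of 2.16 (1.90 to 2.42), and the whole interval lay beyond 2-fold, which held for no other carrier. SLC1A3 (ENSSSCG00000016841), the glutamate and aspartate transporter of glial cells, had 71.5 RPKM from 2162 reads in the R/r library and 129 RPKM from 3525 reads in the r/r library. It was 1.81-fold higher, a log2 ratio of 0.86 (0.78 to 0.93), the narrowest interval among carriers at least 1.5-fold apart. SLC1A3 accounted for most of the higher sum of its class in the r/r library.

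Markers of neurons and glia were given beside these genes, and their part in the ratios was not tested. Of the 8 neuronal markers, 2 reached 1 RPKM: UCHL1 at 34.4 RPKM in the R/r and 53.7 RPKM in the r/r library, and STMN2 at 2.60 and 1.41 RPKM. NEFH was at 0 in both libraries, TUBB3 had 3 reads in each, and NEFL had 3 reads in the R/r and 35 in the r/r library. Of the 7 glial markers listed there, 5 were expressed. GFAP stood at 56.2 and 136 RPKM, whereas LGI4 stood at 26.0 and 7.84 RPKM. The glial markers thus lay on both sides.

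Other glutamate and neutral amino acid transporters of SLC1 were low or nearly equal. SLC1A2, a further glutamate transporter of glia, had 9.71 RPKM in the R/r and 9.97 RPKM in the r/r library. SLC1A1, the glutamate transporter of neurons and epithelia, was the carrier closest to the minimum, with 1.11 and 0.682 RPKM and a log2 ratio of -0.70 (-1.25 to -0.17). SLC1A5, which carries glutamine, had 6.10 and 4.38 RPKM, a log2 ratio of -0.48 (-0.76 to -0.20).

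Heteromeric exchangers join a heavy chain, SLC3A1 or SLC3A2, to a light chain of the SLC7 family that carries the substrate. Of 9 such genes, 7 were in the table and 5 were expressed, 2 lower and 3 higher in the r/r library, and the counting interval of each of the 5 lay on 1 side of no change, beside 25.7% of all features. These genes had between 101 and 7883 reads over both libraries, against a median of 449 over all features. The heavy chain SLC3A2 had 131 RPKM in the R/r and 147 RPKM in the r/r library, a log2 ratio of 0.17 (0.11 to 0.23), while SLC3A1 had 9 and 7 reads. Among light chains, SLC7A8, which carries large neutral amino acids and is linked to age-related hearing loss, had 61.9 and 69.1 RPKM, a log2 ratio of 0.16 (0.07 to 0.25). SLC7A7, which carries cationic amino acids, had 5.19 and 6.48 RPKM, a log2 ratio of 0.32 (0.13 to 0.51). Below 0 were SLC7A11, the cystine and glutamate exchanger that feeds glutathione and pheomelanin synthesis, and SLC7A10, which carries small neutral amino acids including D-serine. SLC7A11 had 87.8 RPKM in the R/r and 72.6 RPKM in the r/r library, a log2 ratio of -0.27 (-0.41 to -0.14). SLC7A10 (ENSSSCG00000002864) was low, with 2.42 RPKM from 70 reads and 1.19 RPKM from 31 reads, a log2 ratio of -1.02 (-1.68 to -0.39). The cationic amino acid transporter SLC7A1 had 2 features, at 21.1 and 14.7 RPKM in the R/r and 14.6 and 12.3 RPKM in the r/r library. Their log2 ratios were -0.54 (-0.75 to -0.32) and -0.26 (-0.43 to -0.10), so both lay below 0.

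Carriers of carboxylates, sulphate and peptides (SLC13, SLC15 and SLC16) had the lowest median among classes with at least 2 carriers. It was -0.23 over 18 carriers, 10 below and 8 above 0, and the counting interval lay below 0 for 7 and above 0 for 1, beside 14.5% and 11.2% of all features. Their summed RPKM was 428 in the R/r and 340 in the r/r library. Most of that gap came from the sodium-coupled SLC13 family. SLC13A4, a sulphate transporter, had 187 RPKM in the R/r and 143 RPKM in the r/r library, a log2 ratio of -0.39 (-0.44 to -0.34) on 8452 and 5812 reads. SLC13A5 (ENSSSCG00000017888), the plasma membrane citrate transporter, had 73.2 RPKM from 2173 reads and 41.3 RPKM from 1105 reads, 1.77-fold lower, a log2 ratio of -0.82 (-0.93 to -0.72). The third, the sulphate transporter SLC13A1, was near the minimum, at 0.841 and 1.13 RPKM.

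The monocarboxylate transporters (SLC16), several of which move lactate and pyruvate with protons, included 12 expressed genes, 8 below and 4 above 0, with a median log2 ratio of -0.27. The counting interval lay below 0 for 5 and above 0 for 1 (14.5% and 11.2% of all features). SLC16A1, a widely expressed lactate carrier, had 62.7 RPKM in the R/r and 48.6 RPKM in the r/r library, a log2 ratio of -0.37 (-0.48 to -0.25). SLC16A8 (ENSSSCG00000000113), the lactate carrier known from retinal pigment epithelium and choroid plexus, had 4.81 RPKM from 55 reads and 2.04 RPKM from 21 reads, a log2 ratio of -1.24 (-2.04 to -0.49), the lowest of the 176 carriers. The interval above 0 was that of SLC16A6, with 23.7 and 30.7 RPKM, a log2 ratio of 0.37 (0.27 to 0.48). The 3 SLC15 genes, peptide and histidine transporters, were all above 0, at log2 ratios of 0.06 to 0.31, and their intervals spanned no change.

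Bone, marginal cell and melanocyte markers also had lower sums in the r/r library, as had those of fibrocytes and basal cells and of red cells. Glial, neuronal and muscle markers had higher sums, but the expressed markers of each lay on both sides. In the r/r library 2 glial markers were lower and 3 higher, 1 neuronal marker was lower and 1 higher, and 2 muscle markers were lower and 2 higher. The part of any of these cell types in the ratios of SLC13A5, SLC13A4 and SLC16A8 was not tested. All 8 bone markers were expressed, 6 of them lower in the r/r library. IBSP stood at 431 and 268 RPKM and COL1A1 at 89.1 and 38.5 RPKM, whereas SPP1 stood at 86.4 and 104 RPKM. All 5 marginal cell markers in the table were lower in the r/r library, from ATP1B2, with a log2 ratio of -0.81, to KCNE1, at -0.17.

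Vitamin and nucleoside transporters (SLC19, SLC23, SLC29, SLC46 and SLC52) had a median of 8.15 RPKM in the R/r and 5.45 RPKM in the r/r library. These medians fell on different genes, SLC29A1 and SLC19A1, and the class summed to 86.4 and 79.0 RPKM. Over all 176 carriers the medians were 10.9 and 11.0 RPKM, and over the sugar carriers 4.90 and 5.40 RPKM. The median log2 ratio of the 11 carriers was -0.20, with 8 below and 3 above 0. The SLC46 family spread the most. SLC46A2 (ENSSSCG00000005472), described in thymus stroma, had 10.03 RPKM from 378 reads in the R/r library and 4.92 RPKM from 167 reads in the r/r library, a log2 ratio of -1.03 (-1.30 to -0.76). SLC46A1, the proton-coupled folate transporter, had 1.63 RPKM from 77 reads and 3.23 RPKM from 138 reads, a log2 ratio of 0.99 (0.58 to 1.41), just under 2-fold. SLC46A3, a lysosomal carrier, had 11.9 and 11.6 RPKM. SLC23A2, which carries vitamin C and had the highest level of the class, stood at 17.4 and 18.0 RPKM. The 3 SLC19 genes for folate and thiamine were all below 0, at log2 ratios of -0.30 to -0.12, with intervals that spanned no change. Of the nucleoside carriers, SLC29A1 had 8.15 RPKM in the R/r and 6.48 RPKM in the r/r library, a log2 ratio of -0.33 (-0.53 to -0.13).

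Carriers of inorganic ions (SLC8, SLC9, SLC12, SLC20, SLC24, SLC34 and SLC41) had a median log2 ratio of -0.09 over 20 genes, 11 below and 9 above 0, and their summed RPKM was 444 in the R/r and 446 in the r/r library. The counting interval lay below 0 for 5 and above 0 for 4 (14.5% and 11.2% of all features). Potassium chloride cotransporters of SLC12 move both ions out of cells. SLC12A4 had 101 RPKM in the R/r and 116 RPKM in the r/r library, a log2 ratio of 0.20 (0.14 to 0.26). SLC12A7, needed for hearing in mice, had 40.7 and 46.1 RPKM, a log2 ratio of 0.18 (0.04 to 0.33). SLC12A5, the neuronal form, fell below the minimum at 0.721 and 0.985 RPKM. All 3 SLC41 genes, which include magnesium carriers, were below 0, but the interval of 1 of them spanned no change. SLC41A1 had the highest level, with 53.1 and 50.03 RPKM. The phosphate carrier SLC20A2 had 42.7 and 33.7 RPKM, a log2 ratio of -0.34 (-0.48 to -0.21).

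Sodium/proton exchangers (SLC9) set the pH of the cytosol and of organelles, and 8 of 8 listed were expressed, 4 below and 4 above 0. SLC9A9, an exchanger of endosomes, had 29.1 RPKM in the R/r and 30.2 RPKM in the r/r library. SLC9A7, a Golgi exchanger, lay above 0 at 6.89 and 8.48 RPKM, a log2 ratio of 0.30 (0.02 to 0.58). SLC9A4 lay below, at 10.8 and 8.47 RPKM, a log2 ratio of -0.36 (-0.58 to -0.14). SLC9A3 (ENSSSCG00000026187), the apical exchanger of kidney and gut, had 1.59 RPKM from 17 reads and 3.73 RPKM from 36 reads, a log2 ratio of 1.23 (0.36 to 2.16). The rule also took in 2 scaffold proteins that bind SLC9A3 and carry nothing themselves. SLC9A3R2 had 124 RPKM in both libraries, and SLC9A3R1 had 56.9 RPKM in the R/r and 60.1 RPKM in the r/r library. SLC66A2, placed in no substrate class here, had 11.0 and 11.3 RPKM.

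**Figure D2:**
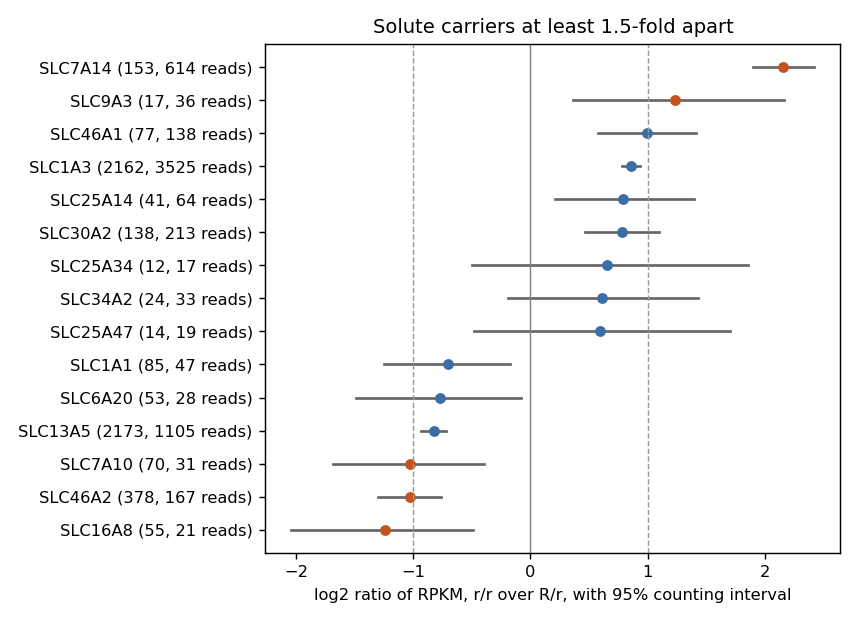
Log2 ratio of RPKM, r/r over R/r (x axis), of the 15 carriers at least 1.5-fold apart (rows, with reads in the R/r and r/r library); points are ratios, lines the 95% counting intervals, dashed lines mark 2-fold, and the 5 points at or beyond 2-fold are coloured differently. The interval is narrow for SLC1A3, SLC13A5 and SLC7A14, and it spans no change for SLC25A34, SLC34A2 and SLC25A47.

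Sugar carriers (SLC2, SLC5, SLC37, SLC45 and SLC50) showed no 1.5-fold difference among 21 features, beside 10.8% of all features. Their median log2 ratio was -0.04, and the counting interval lay below 0 for 2 and above 0 for 2 (14.5% and 11.2% of all features). The highest were SLC50A1, with 41.6 RPKM in the R/r and 39.8 RPKM in the r/r library, and SLC2A3, the glucose transporter best known from neurons, with 26.9 and 27.3 RPKM. SLC2A1, the glucose transporter of most epithelia and of capillaries, was not among the symbols and was not analysed here. Classes go by family, so this one holds SLC5A6, a vitamin carrier, with 13.0 and 12.8 RPKM. It also holds 2 carriers of myo-inositol, an osmolyte. SLC5A3 had 4.90 and 6.41 RPKM, a log2 ratio of 0.39 (0.03 to 0.75). The features of SLC2A13 pointed apart, with 11.7 and 8.62 RPKM at one and 1.81 and 2.60 RPKM at the other, and both intervals spanned no change. The 3 SLC37 genes, sugar phosphate exchangers, were all below 0, at log2 ratios of -0.18 to -0.13, with intervals that spanned no change. SLC5A8, a monocarboxylate carrier near the minimum, had 1.04 and 1.18 RPKM.

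Nucleotide sugar carriers of SLC35A supply the Golgi, and all 5 were expressed, with a median log2 ratio of -0.04. The highest, SLC35A1 for CMP-sialic acid, had 46.6 RPKM in the R/r and 51.4 RPKM in the r/r library, a log2 ratio of 0.14 (0.03 to 0.26). SLC35A5 had 26.5 and 25.8 RPKM, and SLC35A4 had 21.3 and 15.9 RPKM, a log2 ratio of -0.42 (-0.64 to -0.20).

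Metal and haem carriers (SLC30, SLC31, SLC39 and SLC40 here) had a median log2 ratio of -0.02 over 21 genes. Within 1.2-fold were 16 of them, beside 11393 of the 16331 features compared. SLC30 proteins move zinc out of the cytosol and SLC39 proteins move it in. The highest were SLC30A9, with 48.0 RPKM in the R/r and 47.4 RPKM in the r/r library, SLC39A1, with 43.4 and 49.0 RPKM, and SLC39A9, with 28.2 and 28.8 RPKM. SLC30A2, which loads zinc into vesicles, had 3.61 RPKM from 138 reads and 6.19 RPKM from 213 reads, a log2 ratio of 0.78 (0.46 to 1.10). SLC31A2, a copper carrier of endosomes and lysosomes, had 8.91 and 6.27 RPKM, a log2 ratio of -0.51 (-0.73 to -0.28). The fewest reads of any carrier belonged to SLC39A2, with 4 and 3.

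Carriers of lipids, choline and bile acids (SLC10, SLC27, SLC33 and SLC44) had a median log2 ratio of -0.06 over 14 genes, 9 below and 5 above 0. Besides SLC44A2, the choline transporter-like SLC44A1 had 41.5 RPKM in the R/r and 44.2 RPKM in the r/r library, and SLC44A3 had 35.5 and 39.5 RPKM. The 4 SLC27 genes, fatty acid carriers, were all below 0, but the intervals of 3 of them spanned no change. SLC27A6 had the lowest log2 ratio of the class, -0.38 (-0.79 to 0.02), at 18.4 and 14.1 RPKM. SLC47A2, an organic cation and proton exchanger, was the 1 expressed gene of its class, with 9.51 and 8.18 RPKM.

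Transporters of neurotransmitters and synaptic vesicles were mostly below the minimum. Of 16 SLC6 features 13 were under 1 RPKM in both libraries, and no SLC18 or SLC32 feature reached it. The vesicular glutamate carriers SLC17A7, SLC17A6 and SLC17A8 had 8, 1 and 1 reads in the R/r and 3, 0 and 0 reads in the r/r library, and the vesicular carriers SLC32A1 and SLC18A3 and the glycine transporter SLC6A5 were listed at 0 in both. A count of 0 allows up to 3 reads. The 4 expressed carriers of these families serve other roles. The creatine transporter SLC6A8 had 48.5 RPKM in the R/r and 44.0 RPKM in the r/r library, a log2 ratio of -0.14 (-0.23 to -0.05). The lysosomal sialic acid exporter SLC17A5 had 11.1 and 10.9 RPKM, and the taurine transporter SLC6A6 had 4.65 and 4.97 RPKM. SLC6A20, an imino acid transporter, had 5.58 RPKM from 53 reads and 3.27 RPKM from 28 reads, a log2 ratio of -0.77 (-1.49 to -0.08).

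**Figure D3:**
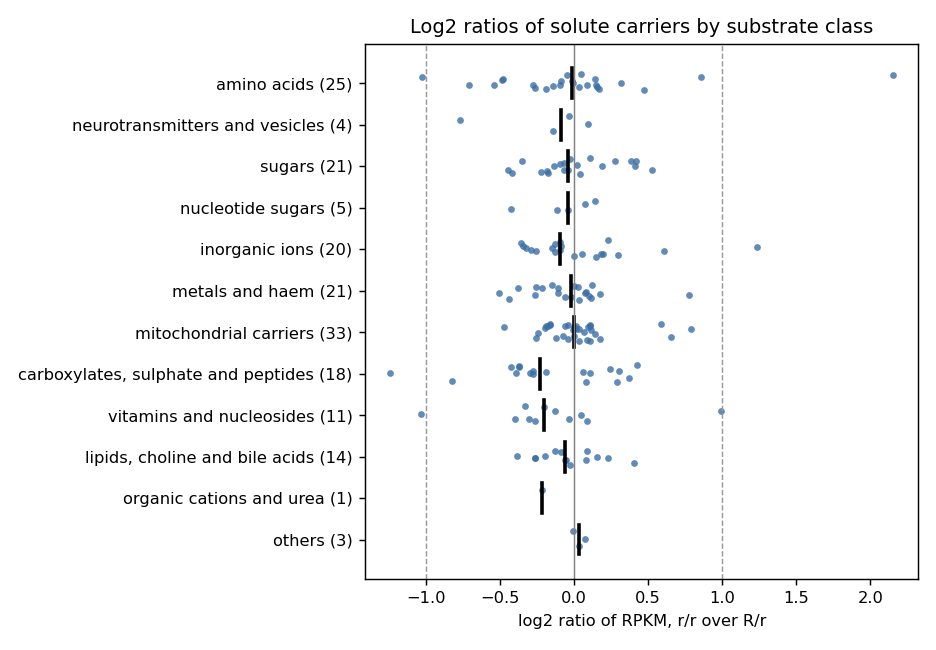
Log2 ratio of RPKM, r/r over R/r (x axis), of each of the 176 carriers (points, jittered vertically) by substrate class (rows, number of carriers in brackets); black bars are class medians and dashed lines mark 2-fold. Class medians run from -0.23 to 0.04, and the points beyond 2-fold belong to the amino acid, inorganic ion, carboxylate and vitamin classes.

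A list of 16 carrier genes with a human hearing disorder or a described place in the cochlea held 13 in the table and 12 expressed. None of the 12 was 2-fold apart, beside 3.99% of all features. Their median log2 ratio was -0.06, with 7 below and 5 above 0, and the counting interval lay below 0 for 3 (SLC16A1, SLC25A4 and SLC44A2) and above 0 for 2 (SLC7A8 and SLC12A7), beside 25.7% of all features in either direction. The thiamine transporter SLC19A2 had 3.53 RPKM in the R/r and 2.86 RPKM in the r/r library, and SLC29A3, a nucleoside carrier of lysosomes, had 9.40 and 8.17 RPKM. SLC33A1, which carries acetyl-CoA, had 20.2 and 19.3 RPKM. The riboflavin transporter SLC52A3 had 14.3 and 15.2 RPKM. SLC44A4, the choline transporter-like protein of a dominant deafness, had 3.32 and 4.40 RPKM from 26 and 31 reads. The intervals of these 5 spanned no change.

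Carrier genes with symbols of another form gave a similar picture with 1 exception. Of 34 such genes, 31 were in the table and 27 expressed, 17 lower and 10 higher in the r/r library, with a median log2 ratio of -0.03. The counting interval lay below 0 for 6 and above 0 for 3 (14.5% and 11.2% of all features). The exception was UCP2, a mitochondrial carrier of the uncoupling protein group, with 9.24 RPKM from 242 reads in the R/r library and 33.6 RPKM from 793 reads in the r/r library. It was 3.64-fold higher, a log2 ratio of 1.86 (1.65 to 2.08), and the only 1 of the 27 at least 2-fold apart, beside 3.99% of all features. The prostaglandin transporter SLCO2A1 came next in size, with 3.94 and 2.01 RPKM, a log2 ratio of -0.97 (-1.77 to -0.22). The organic anion transporters SLCO1A2 and SLCO1C1 were within 1.2-fold, at 121 and 135 RPKM and at 67.9 and 66.6 RPKM.

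Of the 75 carrier features under the minimum, 15 were listed at 0 in both libraries and 12 were above 0 in only 1. Just inside the minimum lay SLC1A1, SLC13A1 and SLC5A8, and just outside lay SLC25A53 (0.892 and 0.990 RPKM), SLC12A5 and SLC2A6 (0.727 and 0.484 RPKM). The minimum was met in both libraries by 172 of the 176 carriers, in the R/r library alone by 2 and in the r/r library alone by 2, and none was at 0 in a library. In RefSeq gene order, which held 171 of the 174 symbols, 8 pairs of carriers lay within 3 genes of each other, and in 4 of them both ratios had the same sign.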

How the data were processed

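RNA of the cochlear lateral wall was sequenced as paired-end reads in 1 MITF R/r and 1 MITF r/r library. The authors aligned the reads with TopHat2 (2.0.7) to Sscrofa10.2, per the submitters' processing notes, and deposited RPKM values per annotated feature; the counting program and annotation were not given in the sources used here. RPKM values already carry feature length and library depth, and were used as deposited. 2 columns without headings, with values of the authors' own comparisons for 22 genes, were not used.

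From these values, log2 ratios without a pseudocount were computed for features above 0 in both libraries with at least 1 RPKM in 1 of them with numpy (2.4.6), pandas (2.3.3) and python (3.11.15), intervals with scipy (1.17.1), and figures with matplotlib (3.10.9). Whole reads were recovered from the RPKM steps as the smallest reads that give both values and a whole length. Library totals were those that made lengths whole (80.75% of 400 features), and 99.9% of 20862 features above 0 then had a whole length. Where reads and length share a factor, the recovered number is too small and its interval too wide. The recovery was tested on simulated data.

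Named were carriers at least 2-fold apart with an interval off no change, the 3 highest of each class, the highest and lowest ratio of each class at 5 RPKM or more, the 3 nearest the minimum on each side, and the genes of 3 lists (hearing, heteromeric exchangers, other symbols). Other genes were named after their values were seen. The carriers and lists were chosen with earlier results of these data known. Alternatives were other pseudocounts, minimums, scalings, thresholds and naming by symbol alone. Some genes that the rule would name are not reported here.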

Additional observations from a re-analysis of the deposited data

How the results depend on the processing

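The count of carriers at least 2-fold apart depended on the minimum, the pseudocount and the threshold. It was 5 of 176 carriers (3 lower, 2 higher) as reported and 1 with a pseudocount of 1 RPKM. With no minimum it was 20 of 224 carriers, and with a minimum of 5 RPKM 2 of 130. At a threshold of 1.5-fold it was 15, and by the counting interval 54. It was 4 to 6 under the other alternatives: a pseudocount of 0.1 RPKM, a minimum of 1 RPKM in both libraries, scaling by the median ratio, by the upper quartile or to TPM, and the symbol column alone. Shares over all features are given here only at the minimum of 1 RPKM without a pseudocount. They were 3.99% at 2-fold, 10.8% at 1.5-fold and 25.7% by the counting interval. The median log2 ratio ran from -0.07 (TPM) to -0.02 (median ratio) and stayed below 0 under each alternative tried. Of 320 values of 64 named carriers under other settings, 0 left their counting interval and 5 changed sign, all of carriers with log2 ratios within 0.05 of 0. No paired analysis was possible because each genotype had 1 library. Depth limits the carriers with few reads, 2 of which had under 20 in all.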
